A study of Bos taurus with 18 samples.

Results

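The miRNAs described here are bta-miR-23a, bta-miR-27a-3p, bta-miR-23b-3p, bta-miR-27b and bta-miR-24-3p, the mature products of a pair of related gene clusters in cattle. They were found in the library files by their names, with no value used in the rule, although earlier results of these data were known when the names were chosen. They are 5 of the 966 names listed there, and all 5 were among the 471 miRNAs with enough reads to be tested. Cluster a holds the genes of miR-23a and miR-27a, cluster b those of miR-23b and miR-27b, and each cluster also holds a gene for miR-24. The labels' tissue is the papillae of the rumen, the forestomach chamber where microbes ferment feed. The 9 cows were Holsteins with a rumen cannula and were not in milk. They ate 100% forage at first (FD) and then a high-grain diet with 65% concentrate (HG). In the control arm (CON) there were 5 cows, and in the arm given a supplement labelled PHY there were 4. The 18 libraries thus form the groups FD_CON (n = 5), FD_PHY (n = 4), HG_CON (n = 5) and HG_PHY (n = 4). The sources used here do not say what PHY stands for, how old the cows were, or whether the FD_PHY cows already received the supplement. Every grain sample was taken after the forage samples, so diet and time cannot be told apart.

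A miRNA is a short RNA that guides a silencing complex to messenger RNAs, mostly by pairing through a few bases near its start, the seed. A cluster is a run of miRNA genes so close together that they can be cut from a single primary transcript, after which each hairpin is processed and each product decays at its own pace. The miR-23/27/24 clusters are a textbook case of gene duplication in vertebrates: miR-23a and miR-23b share a seed and differ near the 3′ end, and so do miR-27a and miR-27b, while the mature miR-24-3p from both clusters is the same. They are studied most in endothelium, muscle, fat and immune cells, and miR-27 is known for targets in fat-cell formation and lipid handling. In the RefSeq gene table for the assembly ARS-UCD2.0, cluster a lies on chromosome 7 in the order MIR23A, MIR27A, MIR24-2. It sits within an uncharacterized locus, with NANOS3 and ZSWIM4 as the neighbouring named protein-coding genes. Cluster b lies on chromosome 8 in the order MIR23B, MIR27B, MIR24-1, within the aminopeptidase gene AOPEP and between FBP1 and FANCC. The deposited files place miR-23a and miR-27a-3p on chromosome 7, and miR-23b-3p and miR-27b on chromosome 8. They list miR-24-3p under a position on chromosome 8, but its reads cannot be assigned to either cluster.

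Reads assigned to miRNAs came to 5724204 to 15171707 per library, which was 27% to 48.6% of all reads. These sums took a single name for each miRNA, but a read that fit several miRNAs was counted under each. Levels are given below in CPM (assigned reads scaled to a common total), adjusted between libraries by the trimmed mean of M-values (TMM). Markers of the labelled tissue were mixed in level. Of 5 miRNAs of stratified epithelium, miR-205 had a mean of 28700 CPM, miR-31 5120 CPM, miR-149-5p 61.5 CPM and miR-184 4.17 CPM, and miR-203 was not analysed here. All 5 epithelial miRNAs of the miR-200 family were listed, at 3060 to 8940 CPM. The tissue also held miRNAs of other cell types. The summed level of 6 miRNAs of smooth muscle and mesenchyme was 136378 to 307506 CPM in the 9 forage libraries and 107892 to 141489 CPM in the 9 grain libraries. For the 2 miR-126 arms of endothelium it was 13308 to 16165 CPM on forage and 9441 to 14233 CPM on grain. In such whole tissue, fewer cells of a type and less RNA per cell cannot be told apart.

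The 5 miRNAs together made up 15.2% ± 1.25 of the assigned reads (SD, n = 18), from 12.7% to 17.2% in single libraries. Among 828 miRNAs ranked by mean CPM, miR-24-3p was number 3, miR-27b number 5, miR-27a-3p number 11, miR-23a number 13 and miR-23b-3p number 23. miR-24-3p had 62071 ± 7543 CPM and miR-27b 46347 ± 4519 CPM (SD, n = 18 for each). miR-27a-3p had 21381 ± 2925 CPM, miR-23a 13534 ± 3605 CPM and miR-23b-3p 8367 ± 1786 CPM (SD, n = 18 for each). This order was nearly the same in each library. miR-24-3p was above miR-27b in 17 of 18 libraries, with a geometric mean ratio of 1.34 and a range of 0.968 to 1.78. miR-27b was above miR-27a-3p, miR-27a-3p above miR-23a and miR-23a above miR-23b-3p in 18 of 18 libraries each. The closest of these steps was miR-27a-3p over miR-23a, at 1.04 to 2.58 times. Mature miRNAs have much the same length, so no length scaling was used, and the order is one of reads and not of molecules.

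**Figure D1:**
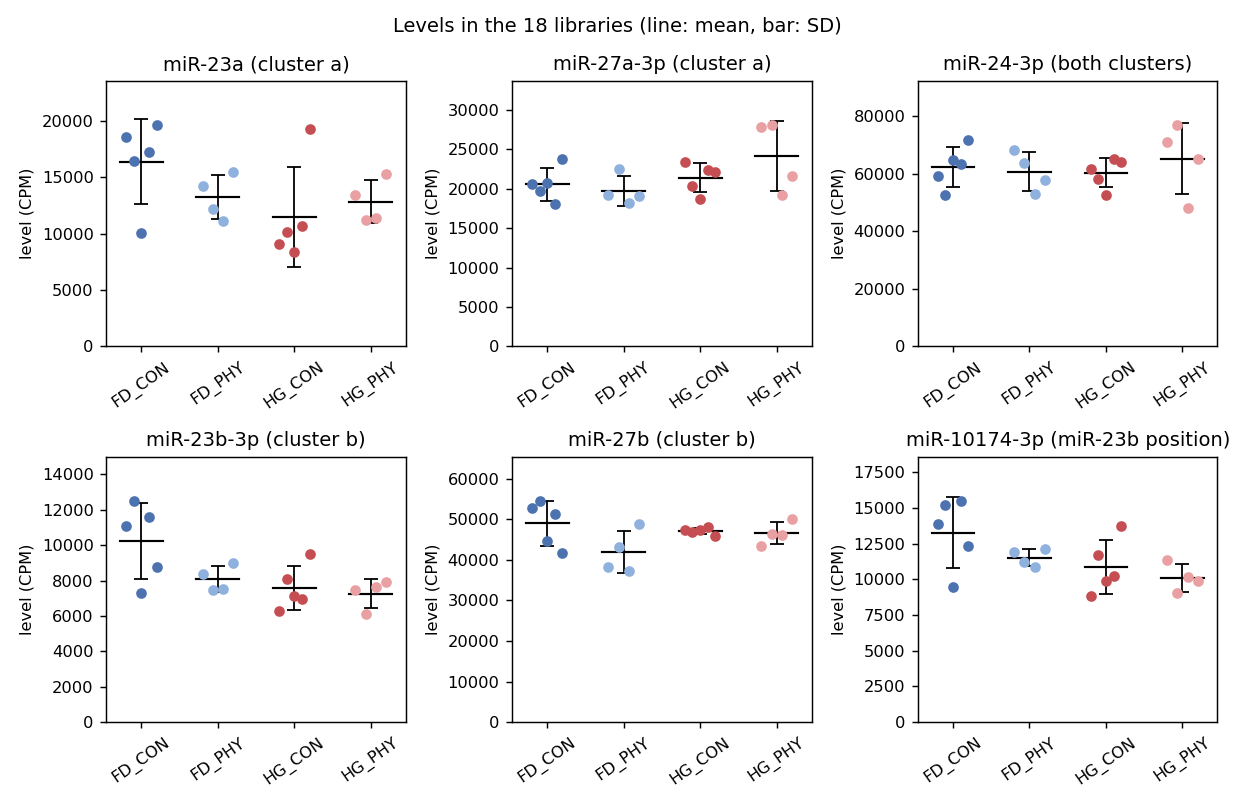
Level of the 5 miRNAs and of miR-10174-3p in each library, in TMM-scaled CPM on axes that start at 0, by group; points are libraries, lines group means and bars SD. The axes differ between miRNAs; the groups overlap for each one, and HG_CON 5 stands apart from its group for miR-23a at 19260 CPM.

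miR-23a varied most among the 5, with a ratio of 2.35 between its highest and lowest library against 1.46 for miR-27b. In FD_CON it stood at 18574, 16436, 10032, 17251 and 19594 CPM, and in FD_PHY at 14179, 12199, 11135 and 15438 CPM. In HG_CON it stood at 9048, 10157, 8348, 10651 and 19260 CPM, and in HG_PHY at 13426, 11169, 11417 and 15301 CPM. The HG_CON libraries were thus low except the fifth, which was as high as the upper FD_CON libraries. Outside that group FD_CON 3 alone was as low.

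miR-23b-3p, its relative from cluster b, stood at 11089, 12496, 7315, 11603 and 8754 CPM in FD_CON and at 8359, 7481, 7548 and 9003 CPM in FD_PHY. On grain it stood at 6262, 8079, 7125, 6937 and 9499 CPM in HG_CON and at 7461, 6093, 7615 and 7894 CPM in HG_PHY. The 3 highest libraries were all FD_CON, and the remaining groups covered nearly one range.

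miR-27a-3p stood at 20579, 19729, 20739, 18026 and 23776 CPM in FD_CON and at 19142, 22426, 18126 and 19102 CPM in FD_PHY. On grain it stood at 23322, 20343, 18721, 22308 and 22115 CPM in HG_CON and at 27731, 28012, 19121 and 21542 CPM in HG_PHY. Only HG_PHY 1 and HG_PHY 2 lay above the forage range, and the HG_CON libraries lay within it.

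miR-27b stood at 52823, 54504, 44725, 51312 and 41641 CPM in FD_CON and at 38350, 43056, 37366 and 48826 CPM in FD_PHY. On grain it stood at 47232, 46936, 47413, 48143 and 45840 CPM in HG_CON and at 43421, 46467, 46190 and 50005 CPM in HG_PHY. The forage libraries spread widely around the grain libraries. The coefficient of variation was 1.78% in HG_CON against 11.3% in FD_CON, a difference in spread that was not tested. It was 5.8% in HG_PHY and 12.5% in FD_PHY. As shares of assigned reads, without TMM scaling, the spreads of the control groups were closer. There miR-27b had 4.96% ± 0.284 in HG_CON and 4.5% ± 0.365 in FD_CON (SD, n = 5 each).

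miR-24-3p, the product common to both clusters, ranged from 52757 to 71698 CPM in FD_CON, with a median of 63455, and from 52838 to 68287 CPM in FD_PHY. It ranged from 52680 to 65143 CPM in HG_CON and from 47953 to 76813 CPM in HG_PHY. The lowest and the highest library of all 18 were both in HG_PHY.

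Counting bears on how firmly the relatives can be told apart. Reads that fit both miR-27a-3p and miR-27b numbered 86358 over all libraries, which was 2.39% of the reads of miR-27a-3p and 1.08% of those of miR-27b. Reads that fit both miR-23a and miR-23b-3p were 2.66% of the reads of miR-23a and 4.31% of those of miR-23b-3p. The paralogs were therefore separated by nearly all of their reads. The files list a second bovine name, miR-10174-3p, that starts at the same base of chromosome 8 as miR-23b-3p and ends 1 base further. It had more reads than miR-23b-3p in 18 of 18 libraries, 1983461 against 1455053 in all. The adjusted count of miR-23b-3p was 0.489 of its raw count, so its reads were as a rule counted under a second name too. With miR-10174-3p standing for miR-23b, the lead of miR-23a shrank: it was higher in 16 of 18 libraries, and the geometric mean ratio was 1.15 in place of 1.6.

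The first comparison asked how the level of each miRNA on grain differed from that on forage, averaged over both arms. None of the 5 passed the test, edgeR's quasi-likelihood test with Benjamini-Hochberg adjustment over 471 miRNAs and a threshold of 0.05. Nor did any other miRNA: the share called over all miRNAs was 0%. At an unadjusted p under 0.05 the share was 11%, or 52 miRNAs, and DESeq2 called 5 miRNAs in all. The 5 miRNAs had a median log2 fold change of 0.03 against -0.01 over all 471, with 3 above and 2 below 0.

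The relatives of the miR-23 family both had negative values. miR-23b-3p had a mean of 9294 CPM on forage and 7441 CPM on grain, and 8 of 9 grain libraries lay below the forage mean. Its log2 fold change was -0.30 ± 0.11 (SE throughout for log2 fold changes), with an unadjusted p of 0.0114 and an edgeR adjusted p of 0.268, and the forage and grain libraries overlapped. With miR-10174-3p in its place, the value was -0.24 ± 0.10 (edgeR adjusted p = 0.343). miR-23a had means of 14982 and 12086 CPM, and 7 of 9 grain libraries lay below the forage mean. Its log2 fold change was -0.28 ± 0.15 (edgeR adjusted p = 0.499), and without HG_CON 5 it was -0.41 ± 0.13 (edgeR adjusted p = 0.194).

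The miR-27 family and miR-24-3p had values near or above 0. miR-27a-3p had means of 20183 CPM on forage and 22579 CPM on grain, and a log2 fold change of 0.17 ± 0.09 (edgeR adjusted p = 0.464). In 7 of 9 grain libraries it lay above the forage mean. miR-27b had a log2 fold change of 0.05 ± 0.07 (edgeR adjusted p = 0.872), and miR-24-3p of 0.03 ± 0.09 (edgeR adjusted p = 0.923). The mean summed level of smooth muscle and mesenchyme miRNAs, most of it miR-143, was 172531 CPM on forage and 121178 CPM on grain. For endothelium the means were 14370 and 12594 CPM, and for 7 leukocyte miRNAs 6499 and 5599 CPM. The leukocyte miRNAs were mixed: miR-223 (0.48) and miR-150 (0.07) had log2 fold changes above 0. The rest had values below 0, down to -0.53 for miR-146a. On grain the mean sum was higher for 3 erythrocyte miRNAs (9816 and 11625 CPM) and the miR-200 family (30298 and 31695 CPM). For stratified epithelium the means were 34227 and 33593 CPM. The smooth muscle and mesenchyme sums did not overlap between the diets in either arm. Within PHY they were 136378 to 173096 CPM on forage and 107892 to 122835 CPM on grain. Within CON they were 143189 to 307506 CPM on forage and 113479 to 141489 CPM on grain. The log2 fold change of miR-23a was -0.05 within PHY and -0.51 within CON. For single miRNAs, 5.52% had groups without overlap between diets within PHY and 1.06% within CON. The part of these cell types in the values of the 5 miRNAs was not tested.

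**Figure D2:**
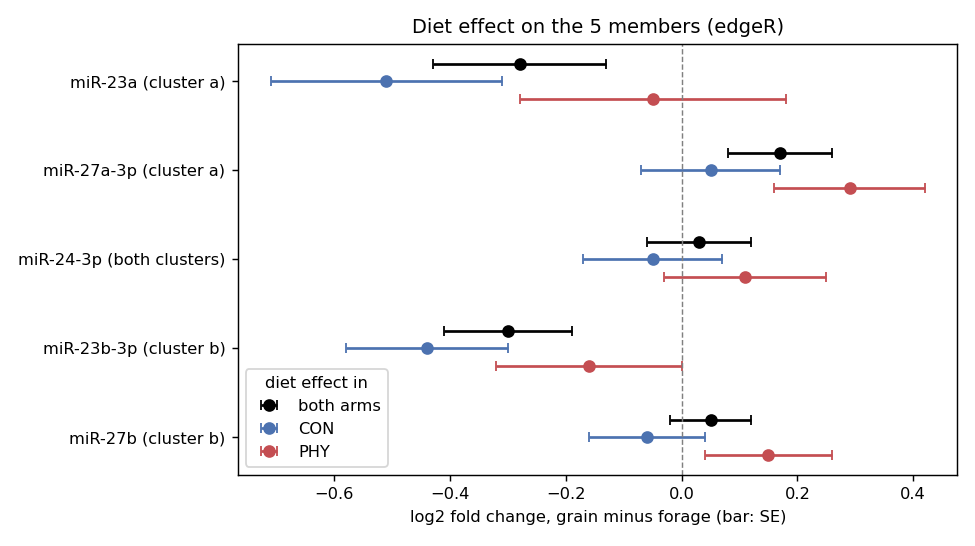
Log2 fold change of grain against forage for each of the 5 miRNAs (horizontal axis; bars are SE), averaged over both arms and within CON and PHY, from edgeR. miR-23a and miR-23b-3p lie left of 0 by -0.28 and -0.30 on average, and miR-27a-3p right of it by 0.17.

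Within the control arm, the values of the miR-23 family were larger and again did not pass. miR-23b-3p had a log2 fold change of -0.44 ± 0.14 (unadjusted p = 0.00602, edgeR adjusted p = 0.398), and 5 of 5 HG_CON libraries lay below the FD_CON mean. With miR-10174-3p in its place, the value was -0.29 (edgeR adjusted p = 0.45). miR-23a had -0.51 ± 0.20 (unadjusted p = 0.021, edgeR adjusted p = 0.398), with 4 of 5 below. The exception for miR-23a was HG_CON 5, and without it the value was -0.78 ± 0.17 (edgeR adjusted p = 0.119). Unadjusted p-values under 0.05 were found for 10.2% of all miRNAs in this comparison and adjusted ones for 0%. miR-27a-3p, miR-27b and miR-24-3p had values of 0.05, -0.06 and -0.05 on the log2 scale.

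Within the PHY arm, the value of largest size was that of miR-27a-3p. It had a log2 fold change of 0.29 ± 0.13 (unadjusted p = 0.0369, edgeR adjusted p = 0.621), and 3 of 4 HG_PHY libraries lay above the FD_PHY mean. miR-27b had 0.15 ± 0.11 with 4 of 4 above, and miR-23b-3p had -0.16 ± 0.16 with 4 of 4 below (edgeR adjusted p = 0.829 and 0.922). miR-23a had -0.05 ± 0.23 (edgeR adjusted p = 0.992). Of all miRNAs, 6.58% had an unadjusted p under 0.05 here and 0% an adjusted one. The 2 within-arm comparisons do not show that the arms differ, and the interaction test addressed that directly. Its log2 values, the diet difference in PHY minus that in CON, were 0.47 ± 0.31 for miR-23a, 0.24 ± 0.17 for miR-27a-3p and 0.28 ± 0.21 for miR-23b-3p, or 0.09 ± 0.20 with miR-10174-3p in its place. They were 0.21 ± 0.15 for miR-27b and 0.15 ± 0.18 for miR-24-3p. All 5 were above 0, as were 260 of all 471 miRNAs, and each had an edgeR adjusted p of 0.995. Single libraries moved these values: that of miR-23a was 0.74 ± 0.25 without HG_CON 5 (edgeR adjusted p = 0.81), that of miR-27a-3p 0.15 ± 0.18 without HG_PHY 1, and that of miR-24-3p 0.06 without HG_PHY 2 and 0.25 without HG_PHY 3. Of all miRNAs 0% were called in the interaction, and 2.12% had an unadjusted p under 0.05.

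The last comparisons set the supplemented cows against the controls on each diet. On forage the 5 values of PHY against CON all lay below 0, as did 53.3% of those of all miRNAs. miR-23b-3p had a log2 fold change of -0.34 ± 0.15 (unadjusted p = 0.0355) and miR-27b of -0.23 ± 0.10 (unadjusted p = 0.043), each with an edgeR adjusted p of 0.911. With miR-10174-3p in place of miR-23b-3p, the value was -0.20 ± 0.14 (unadjusted p = 0.183, edgeR adjusted p = 0.958). For these products of cluster b, 4 of 4 FD_PHY libraries lay below the FD_CON mean, and the groups overlapped. The share of all miRNAs at an unadjusted p under 0.05 was 4.25%, and 0% were called. miR-23a had -0.31 ± 0.22, miR-27a-3p -0.06 ± 0.12 and miR-24-3p -0.04 ± 0.13. On grain the values lay between -0.06 for miR-23b-3p and 0.17 for miR-27a-3p, and the lowest edgeR adjusted p among the 5 was 0.736. miR-23a had 0.16 ± 0.22, and 0.41 ± 0.18 without HG_CON 5 (edgeR adjusted p = 0.436). Of all miRNAs, 6.16% had an unadjusted p under 0.05 on grain and 0% were called. In none of these comparisons were the groups of any of the 5 miRNAs free of overlap. Over all miRNAs, groups without overlap made up 0% for diet, 1.06% for diet within CON, 5.52% for diet within PHY, 1.27% between the arms on forage and 2.76% between them on grain. Since the HG_CON and FD_CON libraries enter several of these comparisons, their values are not independent of each other.

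Setting cluster a against cluster b needs no scaling between libraries, because both counts of a ratio come from the same library. By the members' own names the clusters led in different families: miR-23a was above miR-23b-3p and miR-27b above miR-27a-3p, in 18 of 18 libraries each. With miR-10174-3p as the b product, miR-23a led in 16 of 18 libraries, and in HG_CON the geometric mean ratio was 1.02, from 0.842 to 1.4. The ratio of miR-23a to miR-23b-3p had a geometric mean of 1.6. It was 1.68, 1.32, 1.37, 1.49 and 2.24 in FD_CON and 1.7, 1.63, 1.48 and 1.71 in FD_PHY. It was 1.44, 1.26, 1.17, 1.54 and 2.03 in HG_CON and 1.8, 1.83, 1.5 and 1.94 in HG_PHY. The fifth library was the highest of its group in both FD_CON and HG_CON, although the labels do not tie a number to a cow.

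The ratio of miR-27a-3p to miR-27b had a geometric mean of 0.46. It was 0.39, 0.362, 0.464, 0.351 and 0.571 in FD_CON and 0.499, 0.521, 0.485 and 0.391 in FD_PHY. It was 0.494, 0.433, 0.395, 0.463 and 0.482 in HG_CON and 0.639, 0.603, 0.414 and 0.431 in HG_PHY. The HG_PHY libraries held both the 2 highest ratios of all and a pair near the low end of the grain range. Summed over both families, cluster a gave 38.9% ± 3.53 of the reads of the 4 cluster-specific miRNAs (SD, n = 18), from 33.2% to 46.3%.

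**Figure D3:**
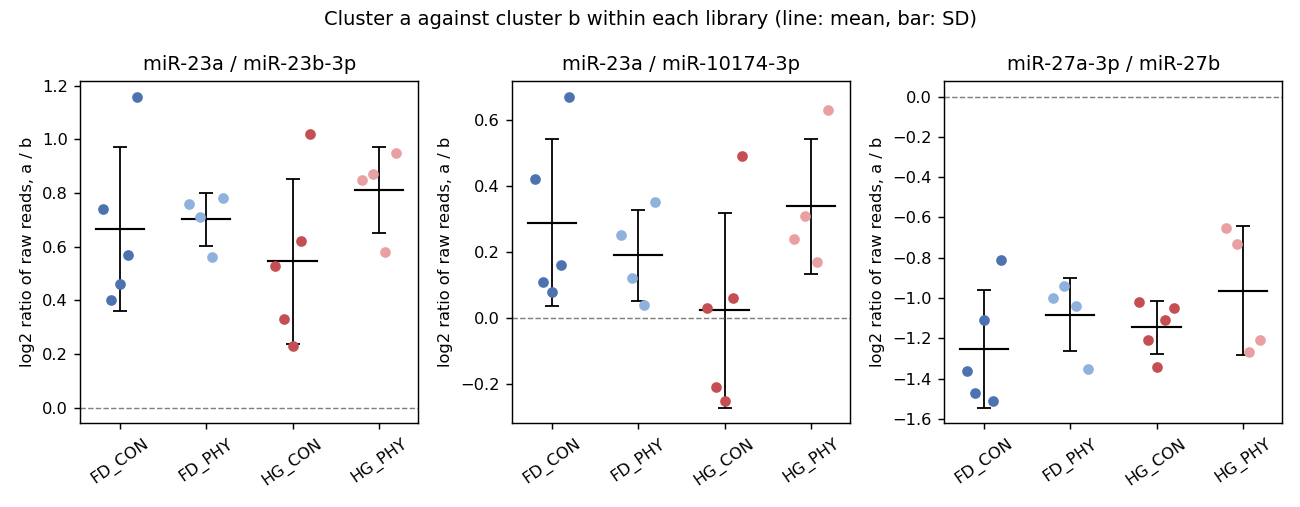
Log2 ratio of the cluster a product to the cluster b product in each library, for miR-23 (also with miR-10174-3p as the b product) and miR-27, by group; points are libraries, lines means, bars SD, and the dashed line marks equal reads. The ratio of miR-23a to miR-23b-3p lies above that line (1.17 to 2.24 on the linear scale) and the miR-27 ratio below it (0.351 to 0.639), while the ratio with miR-10174-3p lies on both sides (0.842 to 1.59).

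Neither ratio passed the test for a difference between diets, which does not show that diet left them unchanged. The log2 difference between grain and forage was -0.02 for miR-23 (exact permutation p = 0.892, two-sided, adjusted 0.954) and 0.11 for miR-27 (exact permutation p = 0.345, adjusted 0.714). Both p-values are among 12 from 2 ratios and 6 comparisons, adjusted together. In the 4 within-arm tests the log2 differences lay between -0.12 and 0.12, with the lowest adjusted exact p at 0.714. With miR-10174-3p as the b product, the miR-23 ratio differed by -0.08 for diet and by -0.26 within CON on the log2 scale, and the groups overlapped in both. Between arms, the miR-23 ratio was 0.27 higher on the log2 scale in HG_PHY than in HG_CON. All 4 HG_PHY libraries lay above the HG_CON mean, but the groups overlapped (exact permutation p = 0.183, adjusted 0.714). On forage the same difference was 0.04, and the test of the change between diets gave 0.23 (exact permutation p = 0.344, adjusted 0.714). With miR-10174-3p as the b product, the difference between arms was -0.10 on forage and 0.31 on grain, and the groups overlapped in both. Under the alternative settings the change between diets ran from 0.11 to 0.41, and none was called. The miR-27 ratio was higher in PHY by 0.17 on forage and by 0.18 on grain, with exact permutation p-values of 0.357 and 0.31 and an adjusted value of 0.714 for each. With 4 libraries against 4, the smallest p such a test can give is 0.0286.

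The ratios of neighbours within a cluster had larger differences between diets than the ratios across clusters, and the difference in size was not tested. These within-cluster ratios were chosen after their values were seen, so they are given as a description. The ratio of miR-23a to miR-27a-3p was 0.903, 0.833, 0.484, 0.957 and 0.824 in FD_CON and 0.741, 0.544, 0.614 and 0.808 in FD_PHY. On grain it was 0.388, 0.499, 0.446, 0.477 and 0.871 in HG_CON and 0.484, 0.399, 0.597 and 0.71 in HG_PHY. Its geometric mean was 0.728 on forage and 0.523 on grain, a log2 difference of -0.48, and 8 of 9 grain libraries lay below the forage mean. The exception was HG_CON 5.

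In cluster b, the ratio of miR-23b-3p to miR-27b was 0.21, 0.229, 0.164, 0.226 and 0.21 in FD_CON and 0.218, 0.174, 0.202 and 0.184 in FD_PHY. On grain it was 0.133, 0.172, 0.15, 0.144 and 0.207 in HG_CON and 0.172, 0.131, 0.165 and 0.158 in HG_PHY. The geometric mean was 0.201 on forage and 0.158 on grain, a log2 difference of -0.35, with 8 of 9 grain libraries below the forage mean. In the PHY arm, forage and grain did not overlap, at 0.174 to 0.218 against 0.131 to 0.172. For single miRNAs in that comparison, 5.52% had groups that did not overlap. With miR-10174-3p for miR-23b-3p, the log2 difference over both arms was -0.28, and the PHY groups overlapped. As shares of assigned reads, without TMM scaling, the miR-23 family made up 2.32% on forage and 2.02% on grain (SD 0.382 and 0.377, n = 9 each), while the miR-27 family made up 6.33% and 7.22% (SD 0.343 and 0.383, n = 9 each). The miR-27 shares ran from 5.82% to 6.91% on forage and from 6.63% to 7.76% on grain. This rise was larger than that of the TMM-scaled levels, with log2 fold changes of 0.17 for miR-27a-3p and 0.05 for miR-27b. The share of miR-24-3p was likewise 5.95% on forage and 6.5% on grain, at a log2 fold change of 0.03. The cause of the gap between shares and scaled levels was not tested.

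**Figure D4:**
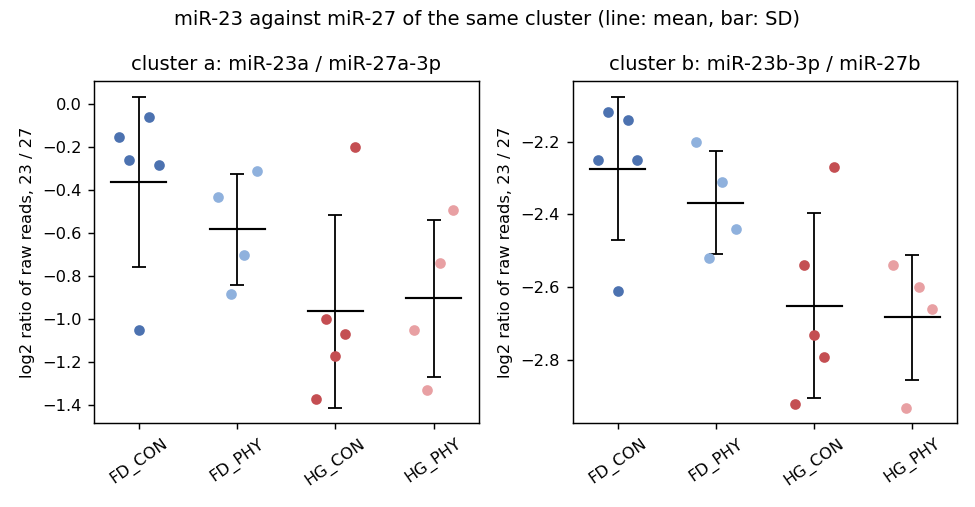
Log2 ratio of the miR-23 to the miR-27 product of the same cluster in each library, for cluster a and cluster b, by group; points are libraries, lines means and bars SD. In both clusters 8 of 9 grain libraries lie below the forage mean, and HG_CON 5 lies high.

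A hairpin yields a main arm, which is loaded into the silencing complex, and another arm that mostly decays. The other arms listed for these hairpins were rare. miR-27a-5p had a mean of 49.5 CPM, which was 0.224% of the level of miR-27a-3p. The entry miR-24, the 5′ arm of the cluster b hairpin, had 110 CPM or 0.179% of miR-24-3p. It is the only arm here that reports on miR-24 from a single cluster. The human-named miR-23a-5p had 9.39 CPM, miR-23b-5p 3.54 CPM, and miR-10174-5p, which overlaps miR-23b-5p, 6.88 CPM. None of the other arms was called in any of the 6 comparisons. Single libraries held as few as 7 reads of miR-23b-5p, so small changes in the rarest arms were not detectable at this depth. miR-24 had a mean of 116 CPM on forage and 104 CPM on grain, with a log2 fold change of -0.17 ± 0.10 (edgeR adjusted p = 0.543). Within PHY, 4 of 4 HG_PHY libraries lay below the FD_PHY mean, but the groups overlapped (-0.23 ± 0.15, edgeR adjusted p = 0.829).

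Each diet has a library per cow, which allows a measure of how far the 5 miRNAs varied together between cows. The cows of both arms were pooled, so differences between the arms also enter these values. The 10 pairs of miRNAs were tested in each diet, which makes 20 tests for each coefficient. Only miR-27a-3p and miR-24-3p on grain passed by Pearson's r, which was 0.90 (exact permutation p = 0.00149, adjusted 0.0298, n = 9). Spearman's rho was 0.87 (exact permutation p = 0.00451, adjusted 0.0902). Without the 2 libraries farthest from the median of miR-27a-3p, r was 0.86. With DESeq2's median-ratio (RLE) scaling in place of TMM, r was 0.89 with an adjusted exact p of 0.0535, so this call depends on the scaling. On forage, r for this pair was 0.55 (exact permutation p = 0.13, rho 0.53 with exact p = 0.148), and 0.16 without the 2 farthest libraries.

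The relatives miR-23a and miR-23b-3p, encoded on different chromosomes, had r = 0.75 on forage (exact permutation p = 0.0239, adjusted 0.159, rho 0.75 with exact p = 0.0255) and 0.71 on grain (exact permutation p = 0.0333, adjusted 0.166, rho 0.53 with exact p = 0.148). Without the 2 farthest libraries r was 0.59 on forage and 0.23 on grain, so the grain value rests on those libraries. The cluster neighbours miR-23a and miR-27a-3p had r of 0.17 and 0.23 on forage and grain (exact permutation p = 0.657 and 0.553, rho 0.12 and 0.22). Without the 2 farthest libraries their r was 0.07 on forage and 0.59 on grain. On grain the order of these pairs thus depended on those libraries. In cluster b, miR-23b-3p and miR-27b had r = 0.82 on forage (exact permutation p = 0.00925, adjusted 0.0925, rho 0.72 with exact p = 0.0369) but -0.10 on grain (exact permutation p = 0.809, rho -0.22). The difference between the diets was not tested. Over all 18 libraries, after subtraction of the group means, r was 0.51 for miR-23b-3p and miR-27b. On the same values it was 0.72 for miR-23a and miR-23b-3p and 0.11 for miR-23a and miR-27a-3p. miR-27a-3p and miR-27b had r of -0.09 and -0.46 (exact permutation p = 0.814 and 0.218, rho -0.05 and -0.28). All levels in a library share its depth and scaling, which also bears on these values.

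**Figure D5:**
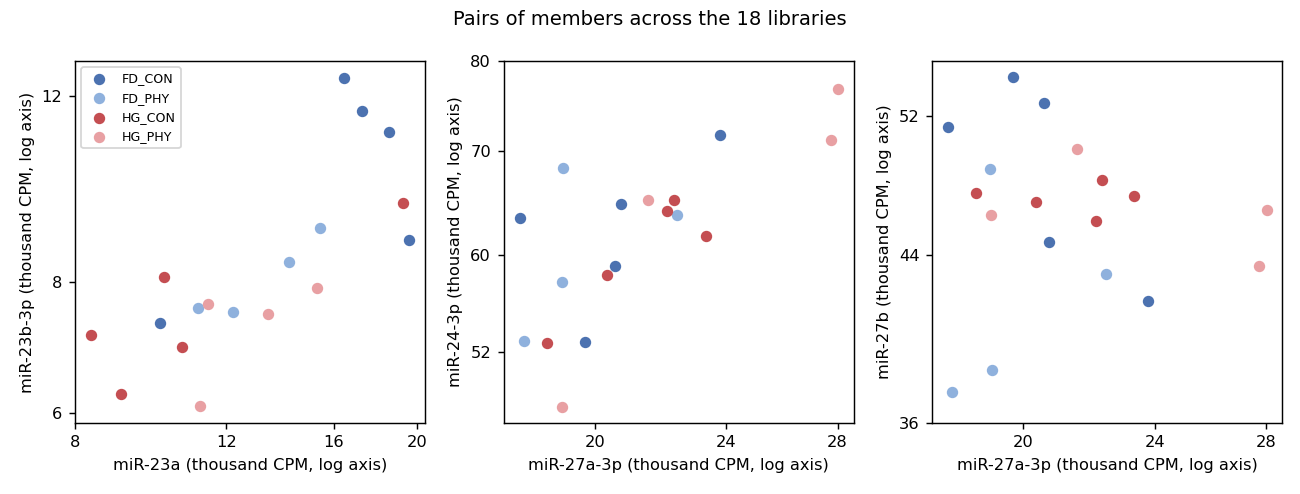
Levels in CPM on log axes for miR-23a against miR-23b-3p, miR-27a-3p against miR-24-3p and miR-27a-3p against miR-27b, with 1 point per library, coloured by group. miR-27a-3p and miR-24-3p lie along a line on grain (r = 0.90), and miR-27a-3p and miR-27b do not (r = -0.46).

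As a further description, each miRNA was set against 462 others over the 18 libraries after subtraction of the group means, by Pearson's r of log2 CPM with no test. The levels most like that of miR-27a-3p were those of miR-484 (r = 0.82), miR-129-5p (0.78) and let-7i (0.76), and those most like miR-24-3p were miR-484 (0.78), let-7i (0.71) and miR-107 (0.70). The pair shared 2 of 3 names, but its own r on these same values was 0.78, so the shared names add little. For miR-23a the nearest were miR-665 (0.79), listed at a mean of only 1.33 CPM, miR-362-5p (0.76) and miR-185 (0.69). For miR-23b-3p they were miR-7859 (0.75), the human-named miR-452-5p (0.74) and miR-365-3p (0.73). For miR-27b they were miR-3431 (0.78), the human-named miR-214-5p (0.76) and miR-199a-3p (0.72), the last on the list of mesenchymal markers. The ratio of miR-23a to miR-23b-3p followed miR-221 (0.90), miR-21-5p (0.86) and the human-named miR-18a-5p (0.84). The ratio of miR-27a-3p to miR-27b followed miR-19a (0.82), miR-484 (0.73) and miR-17-3p (0.73). miR-18a, miR-19a and miR-17 come from another cluster, named after miR-17, and miR-221, miR-21-5p and miR-484 do not. These names were the highest of 462 for each ratio, and no link to that cluster was tested. All r values share the same libraries and their scaling.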

How the data were processed

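Small RNA of 18 rumen papilla samples was sequenced after NucleoSpin miRNA extraction and NETflex Small RNA-Seq library preparation, per the labels' protocols. Of tools, bcl2fastq 2.20 and DESeq2 (no role stated) appear in the submitters' processing notes. Aligner, counter and genome build: not given in the sources used here. The deposited library files hold, per the file headers, a raw read count per mature name, in which a read that fits several names is counted under each. They also hold an adjusted or expected count, in which the authors divided such reads over names and loci. The ratio of adjusted to raw count was 0.493 for miR-23a, 0.489 for miR-23b-3p, 0.336 for miR-24-3p, 0.988 for miR-27a-3p and 0.995 for miR-27b. A deposited table holds a normalized signal for 673 names; 1 size factor per library turned 100% of its values into whole reads within 0.01 reads, and each equalled the rounded adjusted count.

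The 966 names (759 bovine, 207 human) were joined where positions overlapped by at least 15 nt, or where a bovine and a human name of the same miRNA had totals within 5%. This left 828 miRNAs, 471 of which passed edgeR's filterByExpr. Raw counts were fitted with edgeR 4.0.16 (R 4.3.3; TMM, quasi-likelihood test, a mean per group), with Benjamini-Hochberg adjustment over 471 miRNAs and a threshold of 0.05. Ratios and correlations were tested by exact permutation, two-sided, and the procedures were tested on simulated data. Samples were grouped by their titles. The 9 cows each gave a forage and a grain sample, so p-values from fits of the 18 libraries as independent do not use that link. Same-numbered libraries were not taken as pairs: the labels do not say that a number marks a cow, and 7 of 9 pairs, not all, had a correlation of deviations over 0.1 (0.02 to 0.47). Alternatives were other scalings, no filter, adjusted counts, every name as its own row, DESeq2, limma-trend on the deposited table, a replicate block and leaving out each library. The use of miR-10174-3p, of reads of 1 locus only and of reads recovered from the deposited table was added after the data were seen; the recovered reads gave 1 call over all miRNAs for diet and 0 in the other comparisons. Named miRNAs were the 5 members, the other arms of their hairpins and, for each member and each ratio, the 3 miRNAs with the highest r. The members and lists were chosen with earlier results of these data known. The RefSeq gene table, whose build may differ from that of the files, served for names and neighbours only.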

Additional observations from a re-analysis of the deposited data

Results flagged for a closer look

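The level of miR-23a in HG_CON was the only one of 28 sets of libraries tested (the 5 miRNAs and the ratios, by group) in which a single library stood apart. HG_CON 5 had 19260 CPM, and the next highest library of that group had 10651 CPM. The gap to the next library was 0.789 of the whole range, above Dixon's critical value of 0.71 for 5 libraries. Chance flags about 1 set in 20. HG_CON 5 was also the highest of its group for miR-23b-3p, at 9499 CPM, and the lowest for miR-27b, at 45840 CPM.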

How the results depend on the processing

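None of the 5 miRNAs was called in any comparison under 28 alternative settings (830 values, lowest adjusted p 0.111), and no ratio was called under any alternative. Over all miRNAs, the count called for diet, 0 by edgeR, was 3 with no filter, 1 with adjusted counts, 2 with every name as its own row, 1 with recovered reads, 5 with DESeq2 and 0 to 3 when 1 library was left out. For PHY against CON it was 1 on forage with no filter, 1 with DESeq2 and 0 to 1 with a library left out, and on grain 2 with DESeq2 and 0 to 2 with a library left out. With the replicate block the diet count was 3, the count within PHY 1 and those within CON and in the interaction 0. For diet the block gave edgeR adjusted p-values of 0.159 for miR-23a and 0.167 for miR-23b-3p. With same-numbered libraries taken as pairs, the interaction of the miR-23 ratio had an exact permutation p of 0.0238 (adjusted 0.19). The paired diet difference of that ratio had an exact permutation p of 0.75 (adjusted 0.857). Neither the block nor the pairing changed a call of these miRNAs or ratios. Same-numbered libraries correlated best with each other in 6 of 9 pairs.

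Small values changed sign. With a library left out, log2 values for miR-24-3p ran from -0.01 to 0.08 for diet, -0.11 to 0.01 within CON and -0.12 to 0.03 for PHY on forage. They ran from -0.15 to 0.05 for miR-23a within PHY, -0.13 to 0.01 for miR-27a-3p for PHY on forage, and on grain from -0.13 to 0.02 for miR-23b-3p and -0.07 to 0.03 for miR-27b. For the miR-23 ratio they ran from -0.06 to 0.04 for diet, -0.24 to 0.0037 within CON and -0.03 to 0.16 for PHY on forage, which was -0.1 with miR-10174-3p. For the miR-27 ratio the diet difference of medians was -0.00099, and the interaction was -0.2 by medians and -0.1 to 0.12 with a library left out. With RLE scaling 0 correlations passed, and r on grain was 0.01 for miR-23a and miR-27b and 0.26 for miR-23b-3p and miR-27b. Without the 2 farthest libraries r was 0.33 on forage and 0.2 on grain for miR-27a-3p and miR-27b, and on grain 0.0023 for miR-23b-3p and miR-27b and 0.04 for miR-27b and miR-24-3p. The causes were not tested. Low read counts limited the rare other arms. The bearing of depth on the other results was not tested.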
